A study of Mus musculus with 4 samples.

Results

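Small structured noncoding RNAs were examined in RNA sequencing libraries of primary mouse neural stem cells, 2 from Mettl4 knockout and 2 from wild type cultures. The set was chosen by symbol as Rn7sk, Rmrp, Rpph1, Rnu11, Rnu12, Terc, Rny1 and Rny3. Of these 8 genes, 6 were found among the 55414 gene identifiers of the files, on 7 rows, because Rmrp has 2 identifiers. Rn7sk and Terc were not analysed here, since no row carries the Ensembl identifier that the annotation gives for either. Whether any of the 3333 rows without a symbol holds either gene under another identifier was not examined. The cells came from cortex of E14.5 embryos, were expanded as floating neurospheres and then grown as an adherent layer, with EGF and basic FGF in the medium. The labels name neither the knockout allele nor the mouse strain. They do not say whether the libraries of a genotype came from separate embryos, so p-values measure only how these libraries vary, and that variation may be technical. Mettl4, the gene of an adenosine methyltransferase, measured 15.6 and 17.5 CPM (counts scaled to library size with TMM factors) in the knockout libraries, against 63.7 and 66.5 CPM in the wild type libraries (log2 fold change -1.97, SE 0.17; adjusted p = 0.00512 by the quasi-likelihood test of edgeR with Benjamini-Hochberg adjustment over all genes tested).

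These RNAs work as folded molecules inside ribonucleoprotein particles and are not translated. Rpph1 is the RNA of ribonuclease P, which cuts the leader from precursor transfer RNAs, and Rmrp is the RNA of the related ribonuclease MRP, which acts in the maturation of ribosomal RNA. Rnu11 and Rnu12 encode the U11 and U12 small nuclear RNAs, which recognise the introns of the minor spliceosome. Rny1 and Rny3 encode Y RNAs, which are bound by the Ro60 protein. Rn7sk encodes the 7SK RNA, which holds the elongation factor P-TEFb inactive, and Terc the template RNA of telomerase. Rpph1, Rmrp and the Y RNAs are made by RNA polymerase III, and none of the mature RNAs of this set ends in the long poly(A) tail of an mRNA.

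The sequences of the RNAs that were counted are given below, 5′ to 3′ in DNA letters, from the GENCODE M21 transcripts of mouse build GRCm38. The RNAs of both ribonucleases are shown because each shares its stretch of genome with another counted row. In Rmrp (chromosome 4), capitals mark bases 6 to 276, the 271 bases that belong to both of its rows. In Rpph1 (chromosome 14), capitals mark bases 36 to 268, the 233 bases that an exon of the protein-coding gene Ccnb1ip1 covers on the same strand, and bases 1 to 300 of its 319 are printed.
Rmrp: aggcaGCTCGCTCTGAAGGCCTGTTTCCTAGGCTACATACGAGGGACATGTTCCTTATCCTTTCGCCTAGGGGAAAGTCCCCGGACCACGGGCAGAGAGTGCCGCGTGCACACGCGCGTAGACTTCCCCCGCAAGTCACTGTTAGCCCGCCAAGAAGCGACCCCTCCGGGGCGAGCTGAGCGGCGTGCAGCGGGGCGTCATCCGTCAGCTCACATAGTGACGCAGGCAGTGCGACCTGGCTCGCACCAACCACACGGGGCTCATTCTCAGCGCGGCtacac
Rpph1: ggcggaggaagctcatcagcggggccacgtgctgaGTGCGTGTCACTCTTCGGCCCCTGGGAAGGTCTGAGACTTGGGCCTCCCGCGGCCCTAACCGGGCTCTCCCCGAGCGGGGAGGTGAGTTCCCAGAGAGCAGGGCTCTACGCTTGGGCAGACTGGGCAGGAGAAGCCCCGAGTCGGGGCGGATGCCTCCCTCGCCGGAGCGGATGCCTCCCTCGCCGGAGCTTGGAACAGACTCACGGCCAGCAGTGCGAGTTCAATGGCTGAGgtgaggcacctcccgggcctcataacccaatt

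Rnu12 (chromosome 15) and the Y RNA genes Rny1 and Rny3 (both chromosome 6) are shown as the short members that were counted. In Rnu12, capitals mark GTAAGGAA at bases 18 to 25, in the stretch known to pair with the branch site of minor introns. Searched on the sense strand only, these letters occurred in 9 of 1383 annotated snRNA genes (0.651%). In the Y RNAs, capitals mark runs of at least 5 bases that are identical in an alignment of the pair. That alignment had 81 identical columns of 112 (72.3%), and both annotated sequences end in 4 T.
Rnu12: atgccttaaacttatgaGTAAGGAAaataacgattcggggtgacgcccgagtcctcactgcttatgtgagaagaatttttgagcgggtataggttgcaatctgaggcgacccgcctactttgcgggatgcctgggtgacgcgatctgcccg
Rny1: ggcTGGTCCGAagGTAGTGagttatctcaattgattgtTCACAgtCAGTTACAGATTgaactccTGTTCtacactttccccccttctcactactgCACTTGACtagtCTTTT
Rny3: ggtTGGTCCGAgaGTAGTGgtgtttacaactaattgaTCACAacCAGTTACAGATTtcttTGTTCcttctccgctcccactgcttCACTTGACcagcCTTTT

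The members fell into 2 levels far apart in both genotypes. By mean count, Rpph1 had rank 6 and the longer Rmrp row rank 10 of all rows, whereas Rnu12, Rny3 and Rny1 had 12 to 94 counts a library and Rnu11 0 to 2. Per kilobase of annotated RNA, Rpph1 averaged 18994 CPM in the knockout and 21869.8 CPM in the wild type, and Rmrp 11756 CPM in the knockout and 12163 CPM in the wild type. On the same scale Rnu12 averaged 28.0 CPM in both genotypes. In the knockout libraries the members, with Rmrp counted once, made up 0.756% and 1.09% of all counts, against 1.00% and 1.08% in the wild type libraries. Rpph1 and Rmrp held nearly all of that share. The sum over Rnu11, Rnu12, Rny1 and Rny3 was 132 and 196 counts in the knockout libraries, against 101 and 171 in the wild type libraries. In bulk samples such as these, fewer cells of a type and less RNA per cell cannot be told apart.

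**Figure D1:**
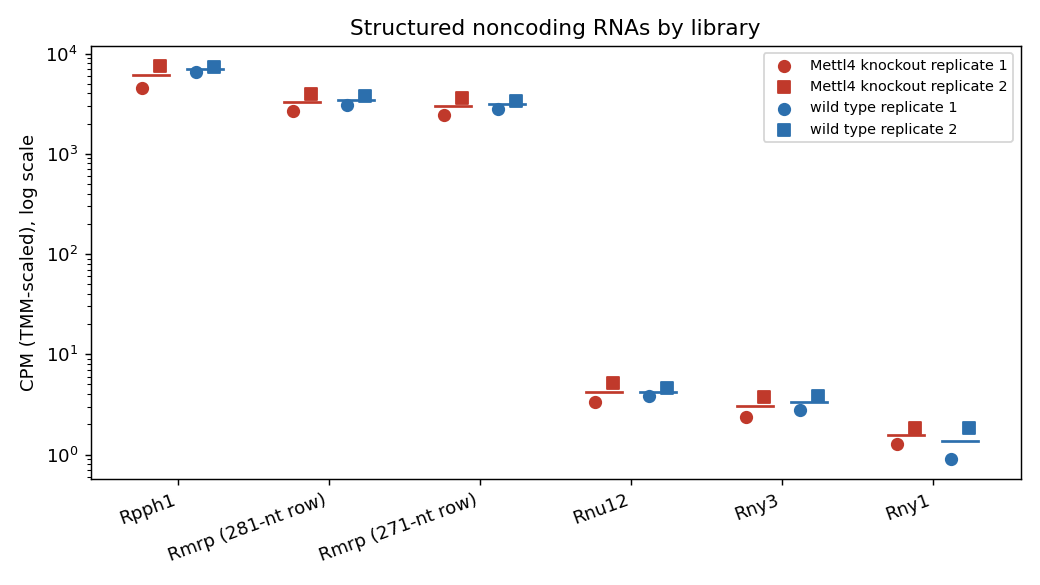
Level of each tested member in each library, in TMM-scaled CPM on a log axis, with Mettl4 knockout libraries left of wild type libraries and horizontal bars at the group means (n = 2 each). Rpph1 and both Rmrp rows lie far above Rnu12, Rny3 and Rny1 in every library, and the genotypes overlap for each.

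Rpph1, the catalytic RNA of ribonuclease P, had the highest counts of the set. It had 86212 and 138715 counts in the knockout libraries, against 87141 and 121404 counts in the wild type libraries. In CPM this was 4540.4 and 7578 in the knockout libraries, against 6564 and 7389 in the wild type libraries. Knockout replicate 1 was the low library and the other 3 lay close together, so the wild type values fell between the knockout values. The knockout mean was 6059 ± 2148 CPM and the wild type mean 6976 ± 583 CPM (SD, n = 2 each). The log2 fold change, knockout minus wild type, was -0.20 (SE 0.31, 95% interval -0.90 to 0.49; edgeR adjusted p = 1.00). Over library totals, knockout replicate 2 held 1.51 times the share of knockout replicate 1, with an exact binomial interval from 1.4995 to 1.5253 that covers counting error only. Wild type replicate 2 held 1.06 times that of wild type replicate 1 (1.05 to 1.07). Pooled over all genes compared, replicates differed by more than counting error. The chi-square statistic was 29.5 times its degrees of freedom for the knockout replicates and 18.7 times for the wild type replicates. A pooled value does not say how many genes differed. The direction of the log2 fold change rested on knockout replicate 1: without it the value was 0.12, and without knockout replicate 2 it was -0.62, with no call in either fit.

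Rmrp, the RNA of ribonuclease MRP, had the next highest counts of the set. On the row of 281 bases it had 50944 and 71831 counts in the knockout libraries, against 41022 and 61543 counts in the wild type libraries. This corresponded to 2683 and 3924 CPM in the knockout libraries, against 3090.2 and 3745 CPM in the wild type libraries. Knockout replicate 1 was again lowest and knockout replicate 2 highest, and the groups overlapped. The means were 3303 ± 878 CPM in the knockout and 3418 ± 463 CPM in the wild type (SD, n = 2 each), with a log2 fold change of -0.05 (SE 0.27, 95% interval -0.65 to 0.55; edgeR adjusted p = 1.00). Rpph1 made up 62.9% and 65.9% of the summed counts of Rpph1 and Rmrp in the knockout libraries, against 68.0% and 66.4% in the wild type libraries.

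In the GRCm38 annotation both RNAs share bases with another counted row. The exons used for counting on GRCm39 were not examined. The shorter Rmrp row, annotated as a ribozyme where the longer is a lincRNA, held 90.4% and 91.6% as many counts as the longer in the knockout libraries, against 91.0% and 90.7% in the wild type libraries, and its log2 fold change was -0.04 (SE 0.27). Reads of the 271 shared bases cannot be told apart between them, so Rmrp enters sums once. Ccnb1ip1 encodes a protein of meiotic recombination, and the row of this gene held 9.05% and 10.8% of the count of Rpph1 in the knockout libraries, against 9.83% and 10.9% in the wild type libraries. Its level was 411 and 816 CPM in the knockout libraries, against 645 and 802 CPM in the wild type libraries (log2 fold change -0.24, SE 0.29). The order of the 4 libraries was the same as for Rpph1. Reads of the shared 233 bases cannot be assigned to either gene from these counts, so the level of Ccnb1ip1 is uncertain. By contrast, Ccdc107 has an annotated exon over 124 bases of Rmrp on the opposite strand and held 0.395% and 0.238% of the Rmrp count in the knockout libraries, against 0.363% and 0.276% in the wild type libraries. Parp2, which starts beside Rpph1 on the opposite strand with no exon overlap, had 352 and 344 counts in the knockout libraries, against 261 and 335 in the wild type libraries.

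The snRNAs of the minor spliceosome were sparse. Rnu12 had 63 and 94 counts in the knockout libraries, against 51 and 76 in the wild type libraries. Its level was 3.32 and 5.13 CPM in the knockout libraries, against 3.84 and 4.63 CPM in the wild type libraries, so the groups overlapped. The log2 fold change was -0.01 (SE 0.31, 95% interval -0.70 to 0.68; edgeR adjusted p = 1.00). That interval leaves room for a difference of more than 1.5-fold in either direction. Rnu11, which works in one particle with Rnu12, had 0 and 0 counts in the knockout libraries, against 1 and 2 counts in the wild type libraries. It did not pass the low-count filter and no fold is given, since a count of 0 allows up to 0.165 and 0.155 CPM in the knockout libraries (3 counts over the library total). An antisense lncRNA gene, Gm28872, covers all 134 bases of Rnu11 and had 16 and 11 counts in the knockout libraries, against 11 and 21 in the wild type libraries. No source used here gives the strand setting of the counting, and reads of this stretch cannot be assigned.

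The Y RNAs were counted at a similar low level. Rny3 had 45 and 68 counts in the knockout libraries, against 37 and 63 in the wild type libraries. Its level was 2.37 and 3.71 CPM in the knockout libraries, against 2.79 and 3.83 CPM in the wild type libraries. Rny1 had 24 and 34 counts in the knockout libraries, against 12 and 30 in the wild type libraries, which came to 1.26 and 1.86 CPM in the knockout and 0.904 and 1.83 CPM in the wild type. For both Y RNAs the groups overlapped, and the first replicate was the lower in each genotype. The log2 fold change of Rny3 was -0.13 (SE 0.34, 95% interval -0.90 to 0.63) and that of Rny1 0.17 (SE 0.46, -0.86 to 1.20; edgeR adjusted p = 1.00 for each). Per kilobase, Rny3 averaged 29.8 CPM in the knockout and 32.5 CPM in the wild type and Rny1 13.9 CPM in the knockout and 12.2 CPM in the wild type. Y RNAs have near-identical copies elsewhere in the genome, so counts of single genes are uncertain.

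In all, 5 of the 8 genes were tested, on 6 rows, and 0 of the 6 rows were called by edgeR at an adjusted p under 0.05, where 0.00502% of the 19912 genes tested were called. At an unadjusted p under 0.05 there were 0 of 6 rows, against 2.77% of all genes tested. DESeq2 also called 0 of 6 rows, with 0 at an unadjusted p under 0.05, where it called 0.0301% of all genes tested and put 1.46% under that p. With limma-voom both counts were again 0, beside 0.00502% and 2.77% of all genes tested. The log2 fold change was positive for 1 gene and negative for 4, with a median of -0.05, beside a median of -0.00 over all genes tested. All 6 rows had overlapping groups, where the groups of 27.4% of all genes tested did not overlap. With 2 libraries a genotype and standard errors from 0.27 to 0.46, differences of the sizes seen were not detectable.

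**Figure D2:**
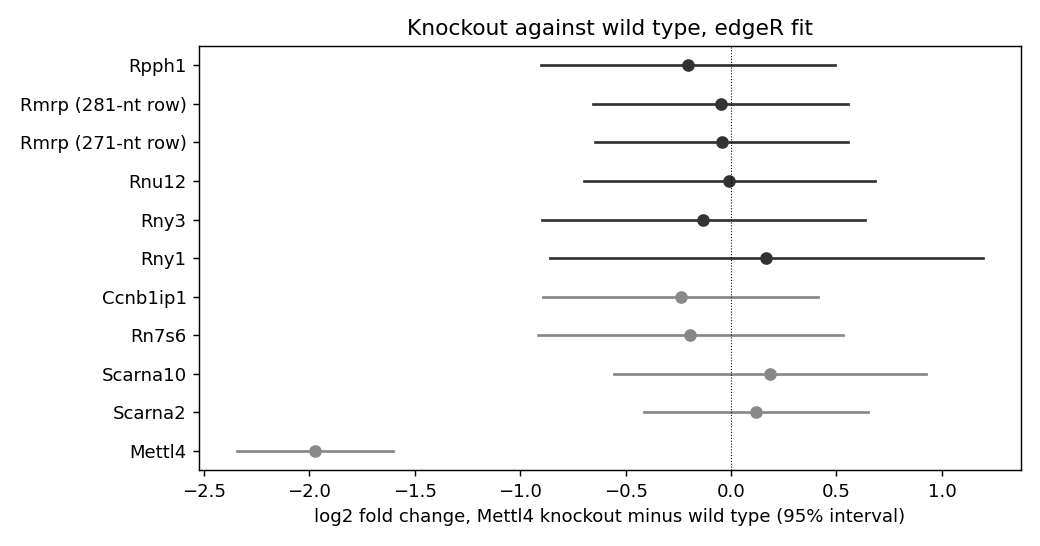
Log2 fold change of Mettl4 knockout minus wild type with 95% intervals from the edgeR fit, for the tested members (dark) and for Ccnb1ip1, 3 other structured RNAs and Mettl4 (grey). Each member interval spans 0, while that of Mettl4 runs from -2.34 to -1.60.

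Libraries of the same genotype differed from each other in these RNAs. For each of the 6 tested rows, replicate 2 was above replicate 1 in both genotypes, with a median log2 difference of 0.56 in the knockout and 0.28 in the wild type. Over all genes tested this order held for 30.5%, with medians of -0.03 and -0.00. The 6 rows include both rows of Rmrp. For Rny1 the exact binomial interval of the ratio of replicate 2 to replicate 1 included 1 in both genotypes. It was 0.77 to 2.35 in the knockout and 0.94 to 4.07 in the wild type. The same held for Rny3 (0.96 to 2.12 and 0.85 to 1.99). For Rnu12 it was 1.01 to 1.96 in the knockout and 0.78 to 1.65 in the wild type. Knockout replicate 1 was the lowest of the 4 libraries for 4 of the 5 tested genes and knockout replicate 2 the highest for 4 of 5. Of 17 structured RNA rows of 200 bases or more that were tested, among them Rpph1 and the shorter Rmrp row, 15 had replicate 2 higher in both genotypes and 0 had it lower in both, with medians of 0.74 and 0.43. Among 225 structured RNA rows under 200 bases, 52 had it higher in both and 84 lower in both, with medians of -0.11 and -0.03. The division at 200 bases was made with the counts known, and no test was run on it.

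**Figure D3:**
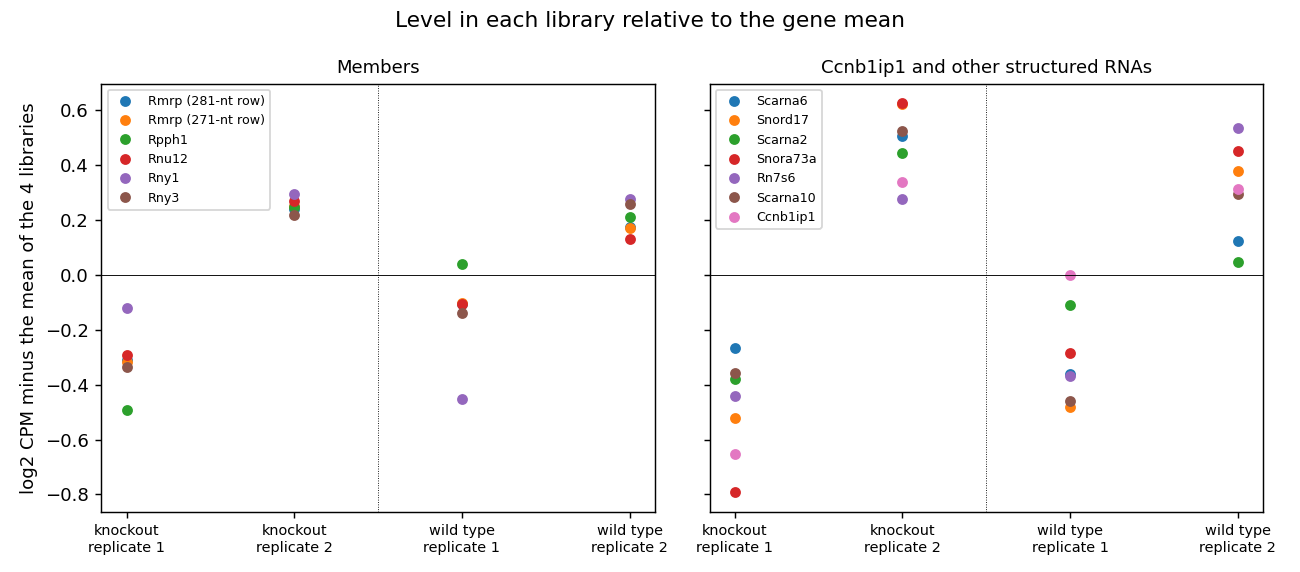
Level of each tested member (left) and of Ccnb1ip1 and other structured RNAs (right) in each library, as log2 CPM minus the gene's mean over the 4 libraries. In both genotypes the points of replicate 2 lie above those of replicate 1 for every gene drawn.

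Examples outside the set show the same order. Rn7s6, annotated as a miscellaneous RNA of 291 bases, measured 496 and 816 CPM in the knockout libraries, against 523 and 978 CPM in the wild type libraries. Scarna10, a guide RNA of Cajal bodies, measured 271 and 500.2 CPM in the knockout libraries, against 253 and 426 CPM in the wild type libraries. Scarna2, another of that class, measured 95.9 and 169.9 CPM in the knockout libraries, against 116 and 129 CPM in the wild type libraries. Snord17 and Snora73a, small nucleolar RNAs of more than 200 bases, measured 12.4 and 28.0 CPM and 6.004 and 16.9 CPM in the knockout libraries, against 12.7 and 23.5 CPM and 8.74 and 14.9 CPM in the wild type libraries. Scarna6, annotated as a scaRNA like Scarna2, measured 33.6 and 57.9 CPM in the knockout libraries, against 31.5 and 44.2 CPM in the wild type libraries. Over library totals, Gm25395, annotated as a scaRNA of 272 bases, measured 44.5 and 84.3 CPM in the knockout libraries, against 51.4 and 65.1 CPM in the wild type libraries. Gm23262, a snoRNA row of 168 bases, measured 16.7 and 31.8 CPM in the knockout libraries, against 15.5 and 22.9 CPM in the wild type libraries, so the order was not limited to rows above 200 bases. None of these was called between genotypes. By closeness of the profile over the 4 libraries (root mean square difference in centred log2 CPM), the named genes nearest to Rpph1 were Cd36 (0.022) and Uqcr11 (0.023), after a row with no symbol. Those nearest to Rmrp, after its own second row, were Cnksr2 (0.012) and Gm14295 (0.013). With 4 libraries, 107 and 648 genes lay within 0.1 of Rpph1 and Rmrp, so closeness says little about a gene.

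The counts bear on how the libraries were made. The labels name the NEBNext Ultra RNA kit and do not say whether poly(A) selection or depletion of ribosomal RNA was used. RNAs without a poly(A) tail were nevertheless counted in number. Beside Rpph1 and Rmrp, the rows of the histone genes, whose replication-dependent mRNAs end in a stem-loop, held 4.52% and 5.04% of counts in the knockout libraries, against 4.73% and 5.82% in the wild type libraries, in sums over near-identical copies. Rows annotated as ribosomal RNA held 0 and 2 counts in the knockout libraries, against 4 and 8 in the wild type libraries. Only 13 rows are so annotated, and the multiple-match setting of the counting is not given. These counts therefore cannot tell how ribosomal RNA was handled in the preparation. The larger mitochondrial ribosomal RNA, mt-Rnr2, had 18426 and 40219 counts in the knockout libraries, against 11362 and 21449 in the wild type libraries, and mt-Rnr1 had 164 and 234 counts in the knockout libraries, against 292 and 210 in the wild type libraries.

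The highest counts of structured RNAs were on long rows. Of 1954 rows annotated as snRNA, snoRNA, scaRNA, ribozyme, ribosomal or miscellaneous RNA, 6 had a mean of at least 1000 counts, and the shortest of these was 271 bases long. Among the 1889 rows under 200 bases, the highest mean was 376 counts, for Gm23262. Rnu12 (151 bases), Rny1 (112) and Rny3 (102) lay within the range of these short rows. Another 3333 rows had no symbol in the annotation, so their type and length were not examined. They held 4.91% and 6.63% of counts in the knockout libraries, against 5.40% and 6.78% in the wild type libraries. Structured RNAs among them would be missing from the counts given here. The share of rows that reached a mean of 10 counts did not climb steadily with length. It was 52 of 330 rows under 100 bases (15.8%), 138 of 1381 from 100 to under 150 (9.99%), 18 of 178 from 150 to under 200 (10.1%), 12 of 49 from 200 to under 300 (24.5%) and 5 of 16 from 300 bases (31.25%). These shares depend on the many rows whose symbol is Gm and a number. Without those rows and rows lacking a symbol, the shares in the same order were 25 of 68 (36.8%) and 23 of 60 (38.3%). They were then 4 of 4 (100%), 7 of 9 (77.8%) and 3 of 5 (60%). The part of length in the low counts of the short members was not tested.

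**Figure D4:**
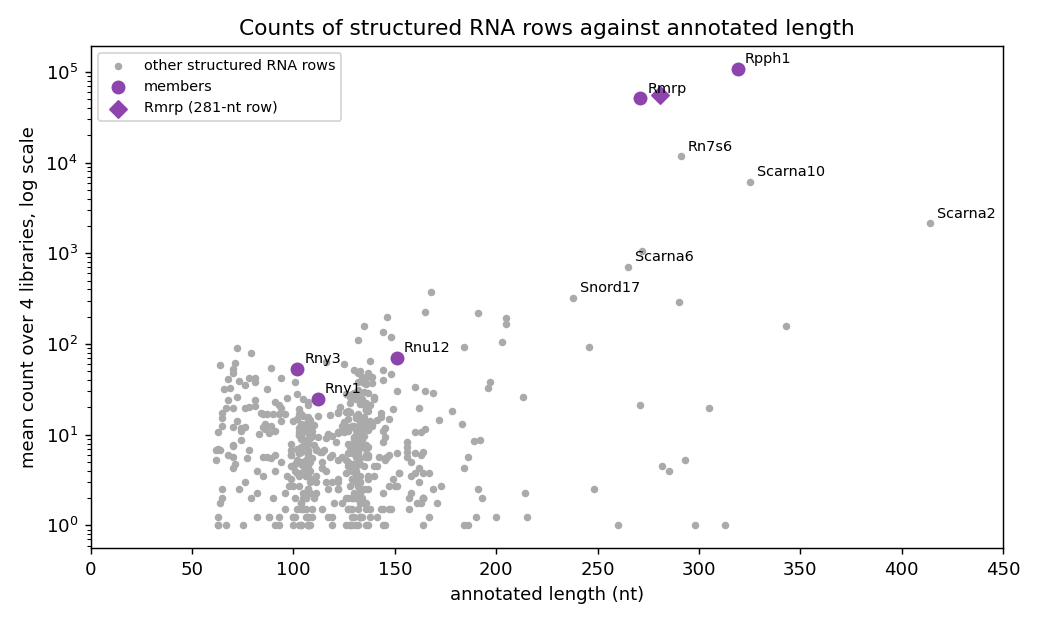
Mean count over the 4 libraries, on a log axis, against annotated length in bases for structured RNA rows with a mean of at least 1 count, members in purple. Rows without a symbol in the annotation are not drawn. The drawn rows above 1000 counts all lie at 271 bases or more, and Rnu12, Rny3 and Rny1 sit among the other short rows.

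Of 28 further structured RNA genes on a list of known ones, only 10 matched a row by symbol. Apart from Rn7s6 and the mitochondrial ribosomal RNAs given above, those matched were sparse or at 0. Rnu3a (the U3 nucleolar RNA, 213 bases) had 25 and 39 counts in the knockout libraries, against 11 and 29 in the wild type libraries, although it is longer than 200 bases. Rnu73b (71 bases) had 74 and 56 counts in the knockout libraries, against 56 and 62 in the wild type libraries. Rnu7, the U7 RNA that guides the trimming of histone mRNA ends, and the RNase P-like genes Rprl1, Rprl2 and Rprl3 had 0 counts in every library. Bc1, a cytoplasmic RNA of rodent neurons, had 0 and 1 counts in the knockout libraries, against 0 and 0 in the wild type libraries. A count of 0 allows up to 0.165 and 0.155 CPM in the knockout libraries and up to 0.234 and 0.178 CPM in the wild type libraries, for counting error only.

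The protein partners of these RNAs were described from 8 lists of textbook members, of which 74 of 75 genes were tested. Over all 8 lists, 0 genes were called by edgeR and 0 had an unadjusted p under 0.05, where 0.00502% and 2.77% of all genes tested did. DESeq2 and limma-voom also gave 0 and 0. The log2 fold change was above 0 for 47 genes and below 0 for 27, with a median of 0.05 beside -0.00 over all genes tested. This balance rested on knockout replicate 2: without it, 27 genes lay above 0 and 47 below, with a median of -0.05.

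Genes of the 7SK particle had positive values for 7 of 8, with a median log2 fold change of 0.12. Mepce, which caps 7SK RNA, measured 38.4 and 31.8 CPM in the knockout libraries, against 29.5 and 27.1 CPM in the wild type libraries (0.31, SE 0.18). Hexim2 and Hexim1, which inhibit P-TEFb when bound to 7SK, stood at 0.46 (SE 0.27) and 0.22 (SE 0.19). Hexim2 measured 5.37 and 7.27 CPM in the knockout libraries, against 4.52 and 4.63 CPM in the wild type libraries. The groups did not overlap for Mepce and Hexim2 and overlapped for Hexim1, beside 27.4% of all genes tested without overlap. These 3 genes have the smallest unadjusted p of the list, so their overlap does not describe the list. None of the 8 genes passed the test. In every other partner list most or all of the tested genes had overlapping groups. Leaving out 1 library at a time gave list medians from 0.08 to 0.21.

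Protein subunits of ribonucleases P and MRP, which bind Rpph1 and Rmrp, had 6 positive and 4 negative values among 10 tested of 11, with a median of 0.05. Rpp14 stood at -0.15 (SE 0.14), Pop5 at -0.18 (SE 0.19) and Rpp30 at 0.13 (SE 0.19). The median turned to -0.14 without knockout replicate 2, with 1 gene above 0 and 9 below, and to -0.05 without wild type replicate 1. Among 8 proteins of the U11/U12 particle, 7 were positive, with a median of 0.10. Rnpc3, which bridges the U11 and U12 RNAs, measured 48.3 and 56.1 CPM in the knockout libraries, against 42.3 and 48.6 CPM in the wild type libraries (0.20, SE 0.16). Zmat5 stood at 0.30 (SE 0.31) and Snrnp48 at 0.10 (SE 0.16). Without knockout replicate 2 the U11/U12 values were split 4 to 4 with a median of -0.01, and without wild type replicate 2 they were split 4 to 4 with a median of 0.03.

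All 4 partners of the Y RNAs were positive, with a median of 0.17. Ro60 (listed as Trove2) measured 243 and 297 CPM in the knockout libraries, against 230.4 and 252 CPM in the wild type libraries (0.16, SE 0.17). Ssb, the La protein that binds the 3′ ends of RNA polymerase III transcripts, stood at 0.29 (SE 0.20) and Ybx1 at 0.18 (SE 0.21). Here too the direction rested on knockout replicate 2, without which 1 gene lay above 0 and 3 below (median -0.05), and without knockout replicate 1 the median was 0.37. It was 0.08 without wild type replicate 1 and 0.28 without wild type replicate 2. Of 8 telomerase genes, 6 were positive, with a median of 0.06. Nop10 and Nhp2, core proteins of H/ACA particles, stood at 0.25 (SE 0.21) and 0.23 (SE 0.20), and the assembly factor Shq1 at -0.15 (SE 0.20). The telomerase median was -0.02 without knockout replicate 1, -0.04 without knockout replicate 2 and -0.05 without wild type replicate 2.

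The machinery that makes such RNAs had values on both sides of 0. Of 10 factors of snRNA-type promoters, 4 lay above 0 and 6 below, the median being -0.03. The SNAPc subunits Snapc3 and Snapc1 stood at 0.10 (SE 0.15) and -0.11 (SE 0.17), and Zfp143 at 0.09 (SE 0.24). Of 12 genes of RNA polymerase III and its repressor Maf1, 4 lay above 0 and 8 below, the median being -0.04, among them the subunits Polr3gl at -0.29 (SE 0.26) and Polr3k at 0.16 (SE 0.17). Of 14 Integrator genes, which end snRNA transcripts, 9 lay above 0 and 5 below, the median being 0.05. Ints14 stood at 0.20 (SE 0.15), Ints12 at 0.19 (SE 0.23) and Ints11, the cutting subunit, at -0.14 (SE 0.18). The medians of these 3 lists changed sign as well: to 0.01 for snRNA-type promoters without wild type replicate 2, to 0.01 for RNA polymerase III without knockout replicate 1 and to -0.01 for Integrator without knockout replicate 2.

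**Figure D5:**
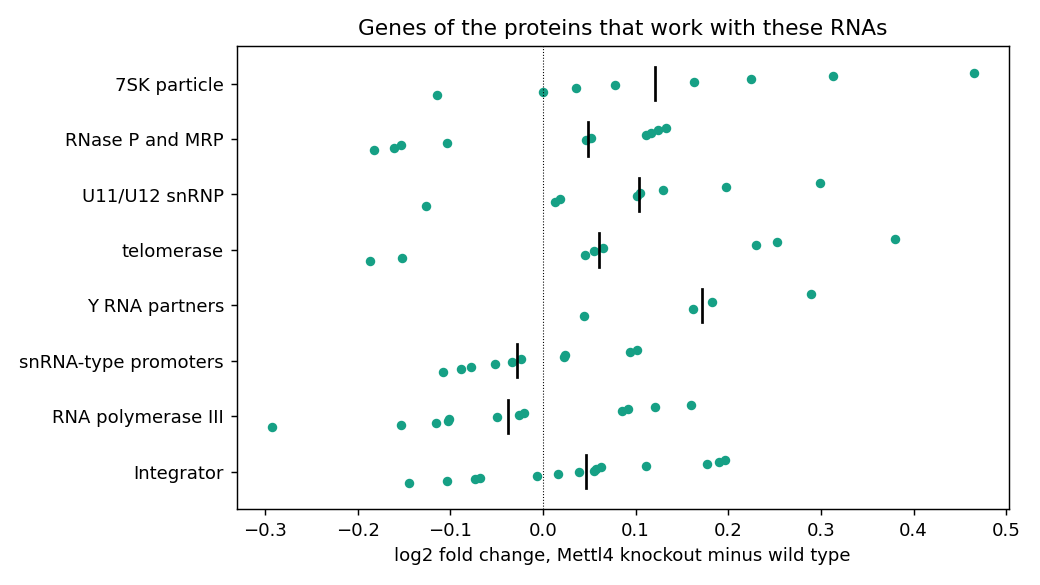
Log2 fold change of Mettl4 knockout minus wild type for each tested gene of the 8 partner lists (points) with the list median (bars). The values run from -0.29 to 0.46, no gene passed the test, and 7 of the 8 medians change sign when 1 library is left out.

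The libraries held 18150389 and 19310668 counts in the knockout and 12812064 and 16883734 in the wild type. All 12 markers of neural stem cells on the list had at least 10 counts in some library, and their sum was 5855 to 6188 CPM in the knockout and 5918 to 5968 CPM in the wild type, over library totals. Markers of neurons, astrocytes and oligodendrocytes summed to 1187 to 1285, 504 to 654 and 1323 to 1518 CPM in the knockout, against 1058 to 1260, 505 to 587 and 1245 to 1467 CPM in the wild type. Microglial, endothelial and mesenchymal markers each summed to less than 9 CPM, with Tmem119 at 0 in every library. Of these markers, 4 of 7, 2 of 6 and 5 of 7 had under 10 counts in every library. So did 2 of 8 neuron and 1 of 8 oligodendrocyte markers. The mesenchymal sum, mostly of genes near the floor, was 2.64 to 3.80 CPM in the knockout, against 5.57 to 8.12 CPM in the wild type. Blood markers summed to 10.2 to 11.2 CPM in the knockout, against 8.23 to 11.9 CPM in the wild type. Whether the cultures held cells of these types, and what part such cells had in the member values, was not tested.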

How the data were processed

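The authors deposited 1 table of read counts per gene for each of 4 libraries. Reads were aligned with STAR 2.7.10 to GRCm39 and counted with featureCounts, per the submitters' processing notes (strand and multiple-match settings: not given in the sources used here). The counts are not normalized. Ensembl identifiers without version were matched to GENCODE M21 (GRCm38) for symbols, types, lengths and transcript sequences (52081 of 55414 rows matched), and no coordinate was carried between builds. Genes passing filterByExpr (minimum count 10) were tested with edgeR 4.0.16 (R 4.3.3; TMM factors, robust quasi-likelihood fit, Benjamini-Hochberg adjustment over 19912 genes), which was tested on simulated data. DESeq2 1.42.0, limma 3.58.1 voom, other scalings and filters, a replicate block and leaving out each library were the alternatives. Standard errors were taken from the fold change and its F value. Binomial intervals are exact (Clopper-Pearson, 95%). Library totals ran from 12812064 to 19310668 counts, and replicates differed by more than sampling noise. Members, lists and the genes named from them (in each partner list the 3 with the smallest p, the 5 genes with Snora, Snord or Scarna symbols and the highest mean CPM, plus Gm25395 and Gm23262, which rank among the 5 highest by annotated type, the nearest protein-coding neighbours, and the 3 profiles nearest to Rpph1 and Rmrp in place of Rn7sk) were chosen with earlier results of these data known. Of the genes this rule names, 1 is not reported here.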

Additional observations from a re-analysis of the deposited data

How the results depend on the processing

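The number of genes called between genotypes was 1, and it was 41 with no low-count filter, 6 with DESeq2, 9 with the replicate block and from 1 to 47 when a library was left out (47 without knockout replicate 1; of the wild type libraries, 31 without replicate 1 and 17 without replicate 2). Members and partner genes had 0 calls under all 13 alternatives. The smallest adjusted p of a member was 0.772, for Rpph1 with the replicate block; the replicate numbers of 2 pairs do not show that the libraries are paired (r = 0.29 across genes between the replicate differences). Without knockout replicate 2, Rpph1 had an unadjusted p of 0.0297 at a log2 fold change of -0.62. Leaving out 1 library at a time moved the log2 fold change of Rpph1 between -0.62 and 0.12, of Rmrp between -0.35 and 0.20, of its second row between -0.36 and 0.21, of Rnu12 between -0.35 and 0.27, of Rny3 between -0.49 and 0.16, of Rny1 between -0.23 and 0.79 and of Ccnb1ip1 between -0.82 and 0.17. Without knockout replicate 1 the sign turned for each of these except Rny1, which turned without wild type replicate 1 and without knockout replicate 2 (-0.13). The other wild type library, left out, turned it for Rmrp and its second row (0.11 each), Rny3 (0.14) and Rnu12 (0.15). Rnu12 also turned to 0.00523 with DESeq2 size factors, 0.000663 with no filter and 0.00735 with DESeq2. The members' share of counts ran from 0.756% to 1.09% in the knockout and from 1.00% to 1.08% in the wild type when a library was left out, and over protein-coding counts alone it was 1.21% in the wild type. The cause of these changes was not tested. The counts of Rnu12, Rny1 and Rny3 limit what can be seen of them.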
